A study of Cerrena unicolor with 12 samples.

Results

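The genes described here changed between cultivation day 10 (Cd-10) and cultivation day 6 (Cd-6) in fructose cultures of the white rot fungus *Cerrena unicolor* 87613, while their mean level in glucose cultures stayed nearly the same. They are 137 of the 11281 genes in the deposited table. Total RNA was sequenced from hyphae of the wild-type strain, grown in shaken liquid culture (200 rpm, 30°C) in a potato dextrose medium in which the sugar was replaced by fructose or by glucose. There were 4 groups of 3 replicate cultures, namely fructose at Cd-10, fructose at Cd-6, glucose at Cd-10 and glucose at Cd-6, which makes 12 libraries in all. All of them come from 1 strain with no mutant, and no culture without sugar was measured. The study set the 2 days against each other because laccase activity was high at Cd-6 and low at Cd-10. Its paper reports this for a potato dextrose medium and names no fructose culture. Laccase activity in the fructose cultures is therefore not known here.

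White rot fungi secrete laccases and other oxidases with which they attack lignin, and they take up the sugars that are released from wood. Glucose and fructose both enter glycolysis after phosphorylation, but fungi sense glucose in particular, and many genes for the use of other carbon sources are kept low while glucose is present. As a culture ages, its sugar is used up, and its mycelia pass from growth to a stationary phase in which stored compounds and nitrogen are recycled. This is general background, and no sugar was measured in these files.

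The genes were chosen by their values. Genes were eligible if their ID began with A, if they were absent from the pathway and glutathione gene lists in the study's supplement, and if their normalized read count averaged at least 50 over the 12 libraries, which left 7736 genes. A gene was taken if log2(group mean + 1) differed by at least 1 between the days in fructose, with no overlap between the 3 values at Cd-10 and the 3 at Cd-6, and by less than 0.25 between the days in glucose. The 137 genes are 1.77% of the eligible genes, and 50 of them were higher at Cd-10 in fructose (the rising genes) while 87 were lower (the falling genes). A further 12 genes with IDs of another form met the same limits on the values and are not included. Of the 93 listed genes, 0 met them, so that leaving the lists out removed no gene. No product, name or sequence could be tied to any of the 137 genes, because the gene table at hand matched 0 of the IDs. They are therefore described by their levels alone, and at most 2 rising and 2 falling genes are named for each comparison.

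The 9 libraries whose reads could be recovered held 10281630 to 12126094 assigned reads, and the reads of the other 3 were not recovered. The normalized counts, which are already scaled and do not measure depth, summed to 10212015 to 11682642 in the fructose libraries and to 9002213 to 11983389 in the glucose libraries. Replicates of a group correlated with Pearson's r of 0.962 to 0.986 across genes, which are not independent replicates, and no 2 libraries were copies of each other. Glucose Cd-6 replicate 2 stood apart from its group on the second principal component (18.1% of the variance), with a score of 62.6 against 13.3 and 32 in its 2 replicates. Results are given with and without it where they rest on it. The labels name no batch, so that any batch that followed the sugar or the day cannot be told apart from it.

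In fructose, the rising genes were a median of 1.40 higher at Cd-10 than at Cd-6 on the log2 scale, and the differences ran from 1.02 to 2.86. The falling genes were lower at Cd-10 by a median log2 difference of -1.39, with a range of -1.01 to -4.48. Most genes lay near the limit, since 30 of the 50 rising and 52 of the 87 falling genes changed by less than 1.5 on this scale. Differences of at least 2, a fold of at least 4, were seen for 12 rising and 19 falling genes, and differences over 3 for 0 rising and 6 falling genes. These values chose the genes and are given as a description. The members nearest to the limits had fructose differences of 1.02 and -1.01, whereas the nearest genes left out had 0.9996 and -0.9979. At the glucose limit the nearest values were 0.249 inside and 0.251 outside, and for the mean level 51.2 inside and 48.1 outside.

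The distance between the nearest cultures of the 2 days varied widely. For the rising genes, the lowest Cd-10 culture lay above the highest Cd-6 culture by a median of 0.797 on the log2 scale, and this gap ran from 0.006 to 2.57. For the falling genes the gap had a median of 0.838 and ran from 0.084 to 2.96. It reached 1 in 16 rising and 30 falling genes, so that in these every culture of one day differed at least 2-fold from every culture of the other. The mean levels over the 12 libraries spanned 51.2 to 12935 normalized reads in the rising genes (median 482.7) and 51.6 to 14174 in the falling genes (median 703.6).

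Genes with a flat mean in glucose were the smaller share of those that changed in fructose. By the same fold limit and without overlap, 512 eligible genes (6.62%) had a higher and 591 (7.64%) a lower level in fructose at Cd-10, and the 137 genes are 12.4% of these 1103. Of the 512, 272 changed by at least 1 in the same direction in glucose, 153 changed by 0.25 to 1 in that direction, 37 changed by at least 0.25 in the opposite direction, and the remaining 50 are the rising genes. Of the 591, 222 changed by at least 1 in the same direction, 215 by 0.25 to 1, and 67 by at least 0.25 in the opposite direction. The plot of day differences in the 2 sugars shows the 137 genes as 2 narrow bands within a broad cloud, and the edges of the bands are the limits of the rule.

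**Figure D1:**
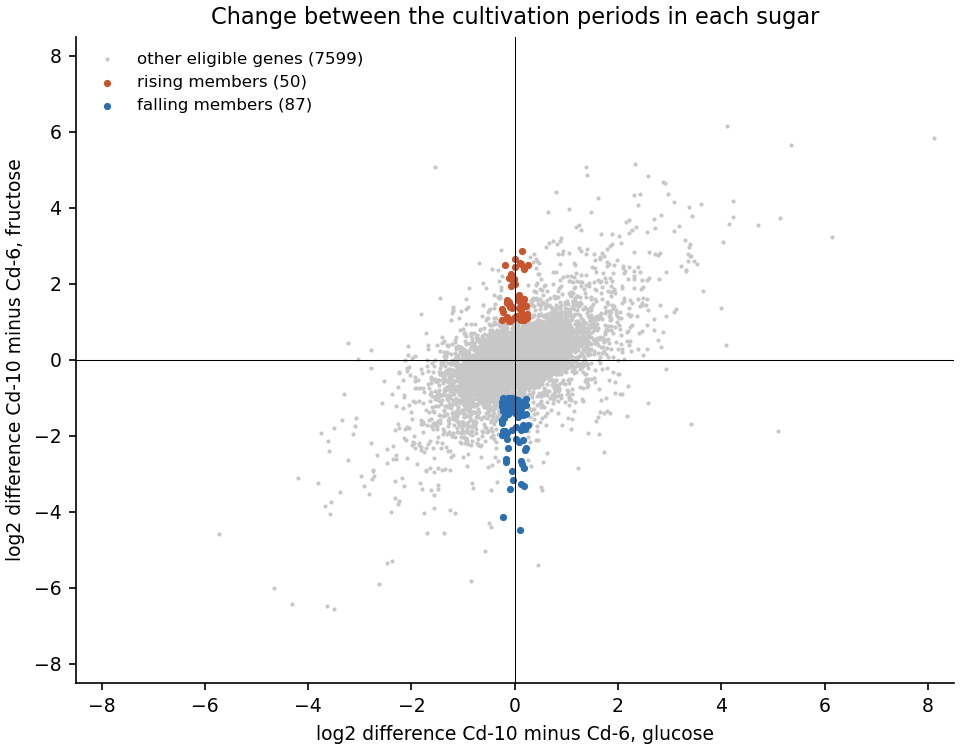
Each point is an eligible gene, with the log2 difference Cd-10 minus Cd-6 in glucose on the x axis and in fructose on the y axis, from group means of the deposited normalized counts plus 1. The 50 rising genes (orange) lie between 1.02 and 2.86 and the 87 falling genes (blue) between -1.01 and -4.48 in fructose, all within 0.25 of 0 in glucose by the rule, and 7599 other eligible genes are grey.

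A glucose difference below 0.25 describes the means of 3 cultures and does not show that a gene was constant. With the limma model for the 6 glucose libraries, the 95% confidence interval of the day difference had a median half-width of 0.67 on the log2 scale. The interval lay within 1 in either direction for 94 genes and reached 1 for the other 43, for which it included a 2-fold change in glucose. The sign of the small glucose difference was mixed, with 30 rising genes above and 20 below 0, and with 33 falling genes above and 54 below 0.

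The tests on the contrasts that the rule used are given as counts only, and nothing is read from them. In fructose, limma called 49 of the 50 rising genes higher at Cd-10 (adjusted p below 0.05), against 14.6% of all 10060 genes tested, and 87 of the 87 falling genes lower, against 15.2%. In glucose it called 0 of the 137 genes, against 12.9% of 10201 genes higher and 11.3% lower. At an unadjusted p below 0.05 the count in glucose was also 0, and edgeR and DESeq2 on the recovered reads called 0. Without glucose Cd-6 replicate 1 limma called 4 of the 137 genes in glucose, against 1317 higher and 1007 lower over all genes tested. Without glucose Cd-6 replicate 2 it called 4, against 1174 and 950. The interaction of sugar and day was past the threshold for 15 rising genes in the positive direction, against 1.83% of 10387 genes, and for 36 falling genes in the negative direction, against 2.84%. These 2 counts were 3 and 11 without fructose Cd-6 replicate 1, against 36 and 56 over all genes tested. Without glucose Cd-6 replicate 1 they were 25 and 61, against 398 and 677. These are the extremes over all 12 cultures left out. For the interaction, edgeR and DESeq2 on the recovered reads had 1 fructose Cd-10 library, so that their counts are not given.

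The rule fixed the change in each sugar but left free where the fructose cultures lay relative to glucose. A gene that is flat in glucose and changes in fructose must differ between the sugars on at least 1 of the 2 days, and the day can be either one. To compare the sugars, the values were rescaled by median-ratio factors across all 12 libraries, because the deposited values appear to have been scaled within each sugar: their median-ratio factors were equal over the 6 fructose libraries (1.0035 each) and over the 6 glucose libraries (1.0084 each), but ran from 0.9493 to 1.0564 over all 12. Every comparison between the sugars rests on this rescaling. The levels in each culture were then set against the mean of the 6 glucose cultures.

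In most genes it was fructose at Cd-6 that lay apart from glucose. Relative to the glucose mean, on the log2 scale, the median level of the rising genes was 0.23, 0.46 and -0.04 in the 3 fructose Cd-10 cultures and -1.28, -1.10 and -1.15 in the 3 fructose Cd-6 cultures. All 3 Cd-6 cultures in fructose were thus low, and the 3 Cd-10 cultures lay on both sides of the glucose mean. The falling genes mirrored this, with median levels of -0.23, -0.43 and -0.37 in the 3 fructose Cd-10 cultures and of 1.21, 1.17 and 1.00 in the 3 fructose Cd-6 cultures. The median eligible gene lay between -0.02 and 0.07 in every culture.

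**Figure D2:**
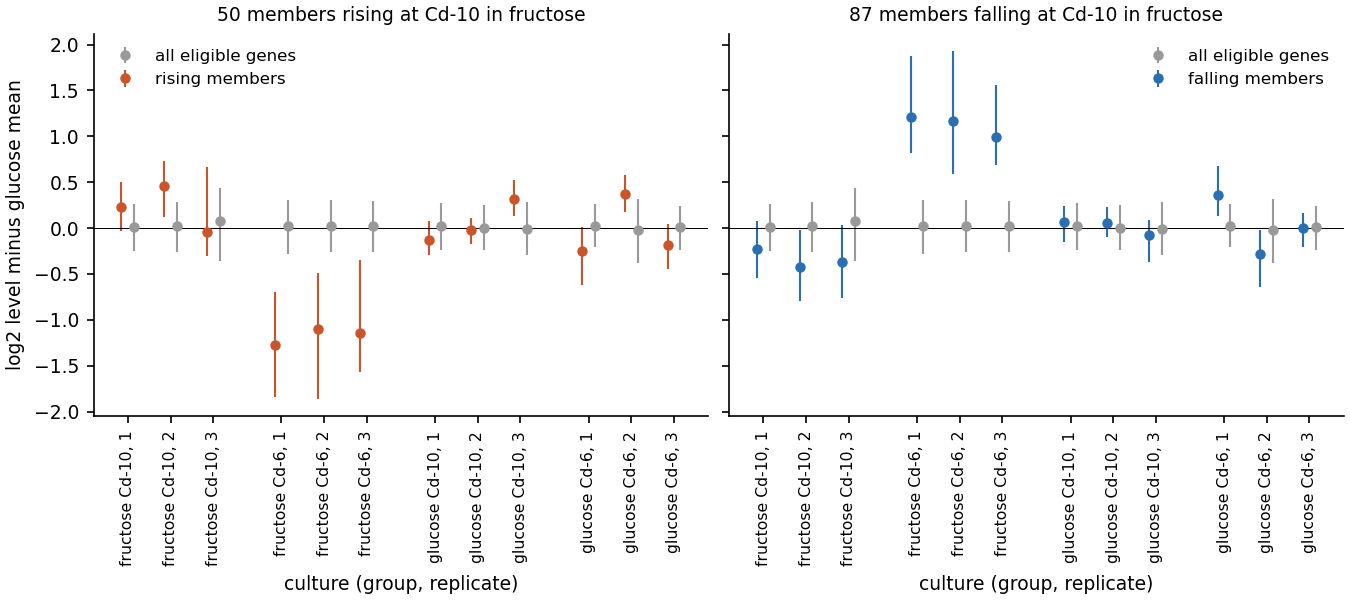
Median level (point) and interquartile range (bar) over the rising genes (left, orange) and the falling genes (right, blue) in each of the 12 cultures, as log2(value + 1) minus the mean of the 6 glucose cultures, beside all eligible genes (grey). The 3 fructose Cd-6 cultures lie at -1.28, -1.10 and -1.15 for the rising genes and at 1.21, 1.17 and 1.00 for the falling genes, whereas the 3 fructose Cd-10 cultures lie between -0.43 and 0.46.

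Gene by gene, the difference between the sugars was larger in size at Cd-6 than at Cd-10 for 37 of the 50 rising and 74 of the 87 falling genes. Fructose minus glucose for the rising genes had a median of 0.14 at Cd-10 (range -0.89 to 2.65) and of -1.25 at Cd-6 (range -3.34 to 0.14). For the falling genes it had a median of -0.33 at Cd-10 (range -1.95 to 1.00) and of 1.13 at Cd-6 (range -0.08 to 4.59). Over all eligible genes the medians were 0.02 at Cd-10 and 0.01 at Cd-6. The sugars differed by less than 0.5 at Cd-10 in 34 rising and 50 falling genes, and by at least 1 at Cd-6 in 29 rising and 51 falling genes. The reverse arrangement was present as well, since 6 rising and 6 falling genes differed by at least 1 between the sugars at Cd-10 and by less than 0.5 at Cd-6. In 26 rising and 69 falling genes the glucose mean lay between the 2 fructose means. These counts and medians were not recomputed without glucose Cd-6 replicate 2, the culture that stood apart from its group.

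**Figure D3:**
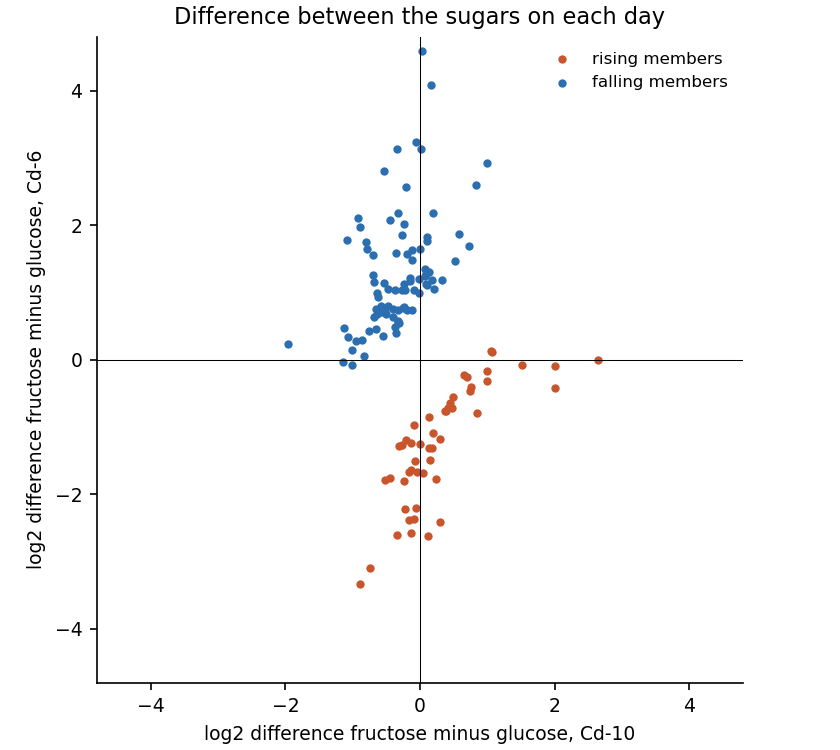
Each point is 1 of the 50 rising (orange) or 87 falling (blue) genes, with the log2 difference fructose minus glucose at Cd-10 on the x axis and at Cd-6 on the y axis, from rescaled group means. The rule sets how far the 2 groups lie from the diagonal, but not where along it a gene lies, and the rising genes centre on 0.14 at Cd-10 and -1.25 at Cd-6 and the falling genes on -0.33 and 1.13.

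The same picture was obtained from the overlap of single cultures. In 32 of the 50 rising genes all 3 fructose cultures lay below all 3 glucose cultures at Cd-6, where 16.9% of the eligible genes did so, and in 14 all 3 fructose cultures lay above glucose at Cd-10 (eligible 16.7%). In 65 of the 87 falling genes all 3 fructose cultures lay above glucose at Cd-6 (eligible 18.3%), and in 30 they lay below glucose at Cd-10 (eligible 15.4%). Since the rule sets 1 day apart, these shares are not read against the background, but the split between the days was not set by it. The sugars were separate at Cd-6 only in 27 rising and 49 falling genes, at Cd-10 only in 12 and 16, on both days in 5 and 16, and on neither day in 6 and 6. Over the eligible genes the shares were 24.2% at Cd-6 only, 21% at Cd-10 only, 11% on both days and 43.8% on neither. The shares at Cd-10 only, 24% of the rising and 18.4% of the falling genes, were near that of the eligible genes. Without glucose Cd-10 replicate 3, 23 rising genes in place of 14 lay above glucose at Cd-10 with no overlap, a count that was 14 to 17 without any other culture. Without glucose Cd-6 replicate 2 the Cd-6 counts were 33 rising and 65 falling genes. Such counts can only rise or stay the same when a culture is left out.

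The average difference between the sugars over both days was the comparison left to test. The mean of fructose at Cd-10 and Cd-6 minus the mean of glucose at Cd-10 and Cd-6 has no term in the rule, and in a balanced design it is independent of the day differences where all groups have the same spread. The spread was not the same in all groups, as given below by the SD of replicates, and the rule also used the overlap of single fructose values, so that the independence holds only in part and was not tested. It was tested with limma on log2(value + 1) in all 12 libraries, with Benjamini-Hochberg adjustment over 10387 genes. Of the 50 rising genes, 16 (32%) were lower in fructose at an adjusted p below 0.05, against 5.23% of all genes tested and 6.08% of the eligible genes, and 2 (4%) were higher, against 3.60% and 4.32%. Of the 87 falling genes, 21 (24.1%) were higher in fructose, against the same 3.60% and 4.32%, and 0 were lower. At an unadjusted p below 0.05, limma put 6 falling genes lower in fructose and 41 higher, and 30 rising genes lower and 8 higher. The share over all genes at this unadjusted threshold was not counted, so that nothing is read from these numbers. The median average difference was -0.60 for the rising genes, with 37 below 0, and 0.44 for the falling genes, with 75 above 0, whereas over all genes tested it was 0.01. The other 98 genes did not pass the threshold, which does not show that the sugars were alike in them.

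**Figure D4:**
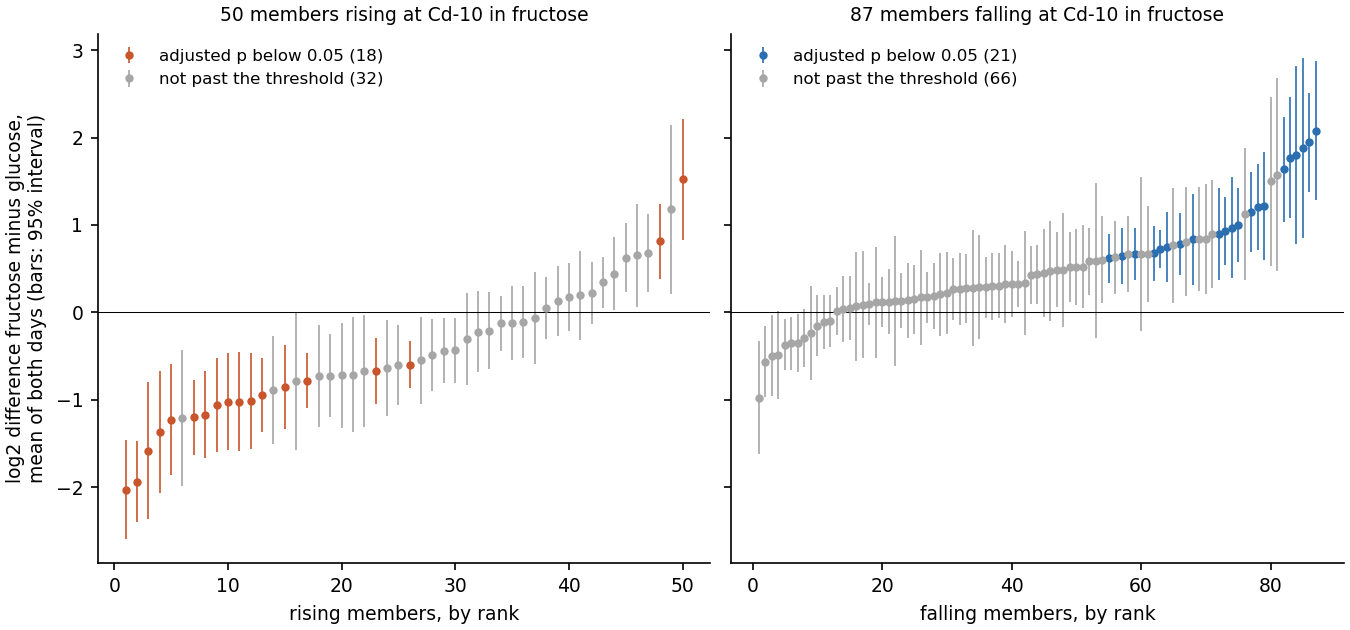
Average log2 difference fructose minus glucose over both days for the 50 rising genes (left) and the 87 falling genes (right), in order of size, with 95% confidence intervals from limma. Coloured points passed an adjusted p of 0.05, and of the rising genes 16 of these lie below 0 and 2 above, while all 21 of the falling genes lie above 0.

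The same lean was present in other genes that met the fructose limits but had a glucose difference of 0.25 or more. Among the 462 other genes that were higher at Cd-10 in fructose by the same limits, 20.1% were lower and 5.19% higher in fructose on average, and among the 504 others that were lower at Cd-10 11.9% were higher and 6.35% lower. The shares in the 137 genes were larger, but the difference between the shares was not tested, and nothing here is particular to genes with a flat glucose mean. The counts rested in part on single cultures, and so did those over all genes tested, which were 543 lower and 374 higher with all cultures. Without fructose Cd-6 replicate 1, 8 rising genes were lower and 13 falling genes were higher in fructose, against 249 lower and 146 higher over all genes. Without fructose Cd-10 replicate 3 the rising genes that were lower numbered 10, against 304 over all genes. Without glucose Cd-6 replicate 2 the counts were 14 and 18, against 418 and 282. With edgeR on the 9 libraries whose reads were recovered, fewer genes were called, in both lists and over all genes. That fit had 1 fructose Cd-10 library, so that its counts are not given.

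Of the falling genes, A10345 had the largest change in fructose. Its normalized counts, rescaled across both sugars, were 662, 369 and 405 in the 3 fructose Cd-10 cultures, against 10299, 19066 and 2537 in the 3 fructose Cd-6 cultures. In glucose they were 528, 455 and 426 at Cd-10 and 383, 510 and 429 at Cd-6. The fructose Cd-6 cultures were thus the only ones that stood out, with a spread of more than 7-fold among themselves, and the fructose Cd-10 values overlapped those of glucose. Its fructose difference on the scale of the rule was -4.48, and fructose minus glucose was 0.03 at Cd-10 and 4.59 at Cd-6. Averaged over both days it was higher in fructose by 2.08 ± 0.37 on the log2 scale (SE, limma adjusted p = 0.0059).

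A03263, the falling gene with the next largest change, had the same pattern. It gave 422, 474 and 415 normalized reads in fructose at Cd-10, against 11285, 10877 and 976 at Cd-6, and 422, 412 and 333 in glucose at Cd-10, against 478, 470 and 417 at Cd-6. Its level in fructose Cd-6 replicate 3 was more than 10-fold below that in the other two, though still above the cultures of the other groups. The fructose difference was -4.15, and it was -4.67 without that culture, -3.77 without replicate 1 and -3.82 without replicate 2. From the mean of log2 values in place of the mean of counts it was -3.50. Its average sugar difference of 1.80 ± 0.47 (SE, limma adjusted p = 0.033) was not stable, since the adjusted p was above 0.05 in 11 of 21 alternatives and reached 0.087.

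Both of these genes were high in a single group and lay near their base level in the other 9 cultures. Fructose Cd-6 replicate 3 was the lowest of its group in 57 of the 87 falling genes, with a median deviation from the group mean of -0.159 on the log2 scale, against 0.009 over the eligible genes. Its part in the result was not tested.

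The rising genes with the largest changes differed from each other in the day on which fructose lay apart. A08469 had 1516, 1609 and 1574 normalized reads in fructose at Cd-10, against 175, 212 and 256 at Cd-6. In glucose it had 1248, 1174 and 1925 at Cd-10 and 655, 2061 and 1261 at Cd-6. Fructose at Cd-6 was thus the low group, below every other culture, and the Cd-10 cultures lay within the range of glucose. Its fructose difference was 2.86, its difference between the sugars was 0.11 at Cd-10 and -2.62 at Cd-6, and on average it was lower in fructose by 1.17 ± 0.23 on the log2 scale (SE, limma adjusted p = 0.0096). The adjusted p was above 0.05 with edgeR, which had 1 fructose Cd-10 library. Its flat glucose mean covered a 3-fold range among the Cd-6 cultures, and its glucose difference of 0.13 was 0.60 without glucose Cd-6 replicate 2, which is outside the limit of the rule.

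In A02799 the fructose Cd-10 cultures stood apart. They held 928, 1011 and 846 normalized reads, against 161, 172 and 109 in fructose at Cd-6. The glucose cultures held 121, 137 and 183 at Cd-10 and 308, 70.1 and 63.5 at Cd-6. Every fructose Cd-10 culture exceeded every other culture. The fructose Cd-6 cultures lay within the range of glucose Cd-6 only through glucose replicate 1, and all 3 were above the other two cultures of that group. The fructose difference was 2.64, and fructose minus glucose was 2.65 at Cd-10 and 0.002 at Cd-6. Without glucose Cd-6 replicate 1 the difference at Cd-6 was 1.13 and the day difference in glucose was 1.13 in place of 0.005, so that A02799 would not meet the rule. The average difference was 1.52 ± 0.32 (SE, limma adjusted p = 0.014). However, the adjusted p was above 0.05 with edgeR and with DESeq2, which had 1 fructose Cd-10 library each.

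**Figure D5:**
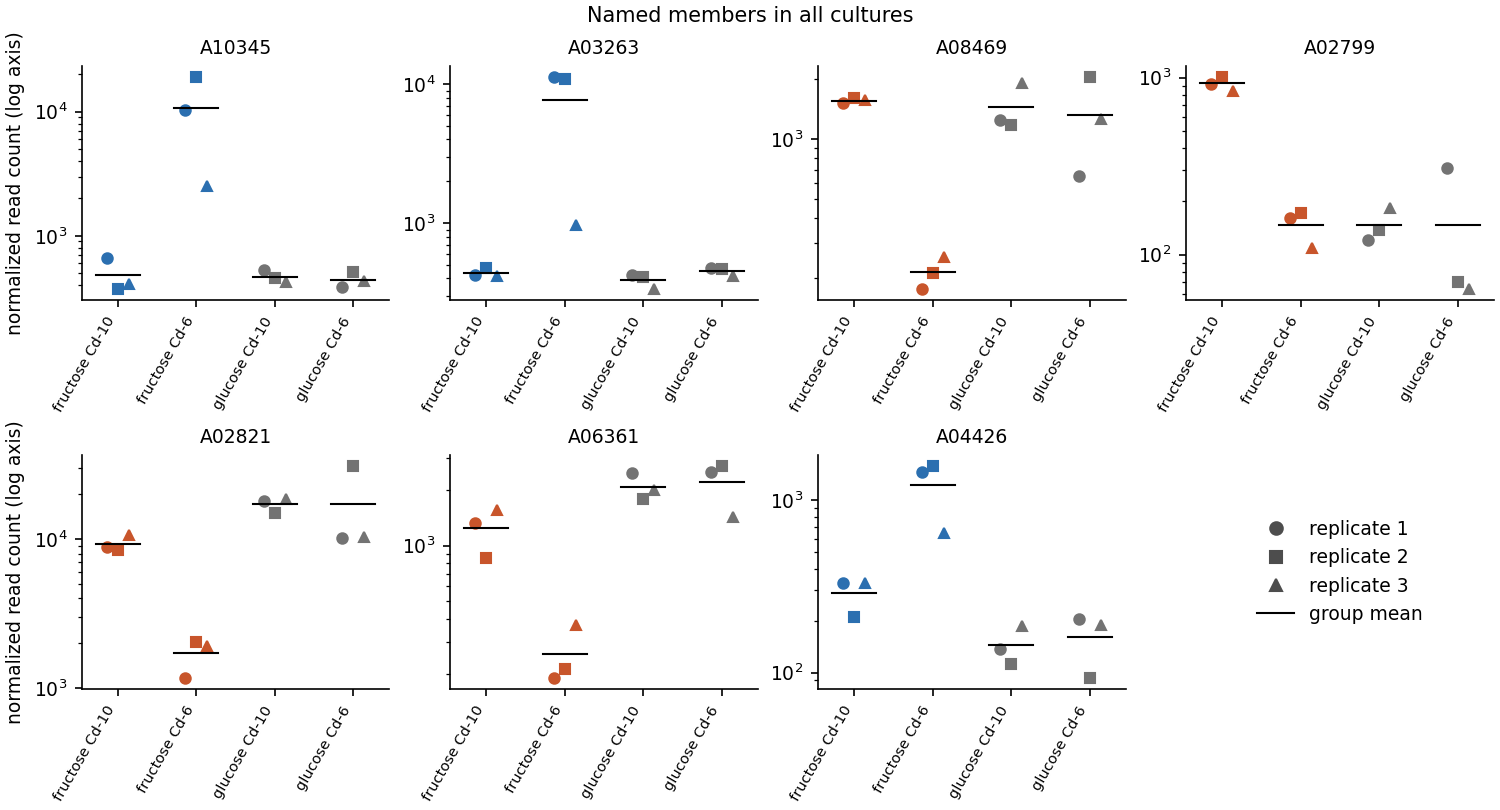
Normalized read counts, rescaled across both sugars, of the 7 named genes in the 12 cultures on log axes, with fructose at Cd-10 and Cd-6 coloured (orange for rising, blue for falling genes), glucose grey, symbols for replicate numbers and lines at the group means. In A10345, A03263 and A08469 only the fructose Cd-6 cultures stand apart, in A02799 the fructose Cd-10 cultures, and in A02821, A06361 and A04426 fructose is apart from glucose on both days.

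Among the rising genes that were lower in fructose on average, the largest differences were those of A02821 and A06361. A02821 had 8810, 8399 and 10669 normalized reads in fructose at Cd-10 and 1162, 2048 and 1913 at Cd-6. Its glucose cultures had 18161, 14980 and 18525 reads at Cd-10 and 10193, 31198 and 10349 at Cd-6. Fructose was below glucose on both days without overlap, with log2 differences of -0.89 at Cd-10 and -3.34 at Cd-6. The average difference was -2.03 ± 0.26 (SE, limma adjusted p = 0.0013). Its glucose Cd-6 mean rested on replicate 2, which was about 3-fold above the other two. Without that culture the difference between the sugars at Cd-6 was -2.59, and the day difference in glucose was 0.75 in place of 0.003, so that A02821 would not meet the rule either.

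A06361 had 1330, 861 and 1572 normalized reads in fructose at Cd-10, against 190, 214 and 371 at Cd-6, and 2490, 1792 and 2000 in glucose at Cd-10, against 2524, 2722 and 1433 at Cd-6. Here too the fructose cultures lay below glucose on each day, by -0.74 at Cd-10 and -3.10 at Cd-6. The average difference was -1.94 ± 0.22 (SE, limma adjusted p = 0.00066).

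Of the falling genes, A10345 and A04426 had the largest average differences. A04426 had 332, 209 and 332 normalized reads in fructose at Cd-10 and 1454, 1591 and 643 at Cd-6. It had 137, 112 and 186 in glucose at Cd-10 and 204, 92.7 and 188 at Cd-6. Fructose was above glucose on both days without overlap, by 1.00 at Cd-10 and 2.92 at Cd-6, and on average by 1.95 ± 0.26 (SE, limma adjusted p = 0.0017). The average differences of A02821, A06361, A04426 and A10345 kept an adjusted p of 0.044 or less in all 21 alternatives.

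The 137 genes varied more among replicate cultures than the eligible genes did. The median SD of log2 values in the 4 groups was 0.331 and 0.308 for the rising genes in fructose at Cd-10 and Cd-6, and 0.351 and 0.481 in glucose. For the falling genes the medians were 0.352 and 0.298 in fructose and 0.289 and 0.395 in glucose. The medians over all eligible genes were 0.227 and 0.167 in fructose and 0.201 and 0.251 in glucose. Within the 137 genes the spread was widest in glucose at Cd-6, which is also the group that holds the library standing apart.

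In glucose the rising and the falling genes deviated in opposite directions within a group. The rule used the group means, which a single culture can shift, so that these deviations are not independent of the choice of genes. In glucose Cd-6 replicate 2, 43 of the 50 rising genes but 14 of the 87 falling genes lay above their group mean, with median deviations of 0.388 and -0.265 on the log2 scale, against -0.03 over the eligible genes. It was the highest of the 3 cultures in 39 rising genes and the lowest in 55 falling genes. In glucose Cd-6 replicate 1 the deviations ran the other way, with medians of -0.202 in the rising and 0.339 in the falling genes. At Cd-10, glucose replicate 3 had median deviations of 0.233 and -0.113. Deviations within a group sum to about 0, so that these values are not independent of each other, and the part of the replicate differences in the choice of genes was not tested.

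The list itself depended on these cultures. Of the 7 named genes, A10345 alone kept a glucose difference below 0.25 whichever culture was left out, and A06361 (-0.32 without glucose Cd-6 replicate 3), A04426 (-0.42 without glucose Cd-6 replicate 2) and A03263 (-0.28 without glucose Cd-10 replicate 1) passed the limit with 1 culture fewer, as A08469, A02799 and A02821 did. Without glucose Cd-6 replicate 2 the rule picked 35 rising and 65 falling genes, of which 19 and 49 were among the 50 and 87. Without glucose Cd-6 replicate 1 it picked 70 and 97, of which 33 and 50 were shared. When libraries were scaled to equal sums, which put the median day difference of all genes at 0.12 in fructose and -0.20 in glucose, it picked 98 rising and 51 falling genes, of which 31 and 36 were shared, so that the larger list was then the rising one.

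Finally, the position of the genes was examined by their ID numbers. Whether these numbers follow the order in the genome is not stated. Of the 145 eligible genes with an ID number next to that of a falling gene, other falling genes left out, 22 (15.2%) were lower at Cd-10 in fructose by the same limit and without overlap, against 6.59% of the 7649 eligible genes that are not among the 87. For the rising genes, counted likewise, it was 5 of 86 neighbours (5.81%), against 6.01% of 7686. Consecutive numbers within the lists were rare, with 1 pair among the falling and 0 among the rising genes. No test was made of these shares.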

How the data were processed

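RNA of 12 cultures was sequenced, 3 for each sugar and day. Per the study's methods, the authors aligned clean reads to the strain's own genome (Hisat2 2.0.5) and assigned them to genes (featureCounts 1.5.0-p3). The methods name FPKM, a length-corrected unit, but the deposited values are another signal: within a library they are whole multiples of 1 step that is the same for genes of any length, which reads as counts divided by 1 size factor per library. This division, and that it was made within each sugar, are inferred from the values and not stated. Levels are therefore not compared between genes. Whole reads (tolerance 0.01) came out for 100.0% of the values in 9 of the 12 libraries, and these reads numbered 10281630 to 12126094 per library. Replicate 1 of glucose Cd-10 and replicates 1 and 2 of fructose Cd-10 did not pass this check, because 1 read is worth about 1 there, and they stayed out of the count tests. The chi-square statistic per gene between replicates was at least 25.6 in the 7 of 12 pairs with reads. These totals limit the precision through counting error only.

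The rule was applied to the deposited values. For tests, the libraries in a fit were brought to a common scale by median ratios, and log2(value + 1) was fitted with limma 3.58.1 (R 4.3.3; moderated with a mean-variance trend) wherever 3 or more libraries reached a value of 10, with Benjamini-Hochberg adjustment over all genes tested and a threshold of 0.05. The day comparisons used the 6 libraries of a sugar, and the interaction and the average sugar difference used all 12. This log scale understates the change of weak genes. All 137 genes passed the filter. The values are normalized, so that the count models of DESeq2 1.42.0 and edgeR 4.0.16, run on whole reads, served as alternatives only, with fructose Cd-10 represented by 1 library that is assumed to vary like the others. Named genes were the 2 rising and 2 falling genes with the largest fructose difference, and the 2 higher and 2 lower in fructose with the largest average difference among those past the threshold. The genes, lists and tests were chosen with earlier results of these data known. Replicates are separate cultures per the labels. Other alternatives were the scaling, pseudocounts of 0.5 and 5, no filter, the study's threshold (fold of at least 2, unadjusted P below 0.001), other limits of the rule, a replicate block and leaving out each culture. The limma fit of the average sugar difference was checked on simulated data with the same dispersion for all genes. The rule and the other fits were not checked in this way. Summaries used Python 3.11.15, numpy 2.4.6 and pandas 2.3.3, and figures matplotlib 3.10.9. The metabolome was not analysed here.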

Additional observations from a re-analysis of the deposited data

Results flagged for a closer look

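The change between Cd-10 and Cd-6 differed between the sugars for 51 of the 137 genes in the interaction test of limma (adjusted p below 0.05 over 10387 genes), 15 rising and 36 falling. The rule used both day differences, so that this count is a description. It was 86 without glucose Cd-6 replicate 1, 27 without glucose Cd-6 replicate 3, 20 without glucose Cd-10 replicate 1, 22 without glucose Cd-10 replicate 2, 14 without fructose Cd-6 replicate 1, 32 without fructose Cd-6 replicate 2 and 26 without fructose Cd-10 replicate 2. The calls over all genes moved as well. They were 190 higher and 295 lower with all cultures, and 398 and 677 without glucose Cd-6 replicate 1. Without glucose Cd-10 replicate 1 they were 48 and 82, and without fructose Cd-6 replicate 1 they were 36 and 56. Leaving out glucose Cd-6 replicate 2 gave 104 and 208, glucose Cd-6 replicate 3 gave 76 and 117, and glucose Cd-10 replicate 2 gave 47 and 85. Leaving out fructose Cd-6 replicate 2 gave 107 and 142, and fructose Cd-10 replicate 2 gave 60 and 116.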

How the results depend on the processing

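With libraries scaled to equal sums, the rule picked 98 rising and 51 falling genes, and with a glucose limit of 0.5 it picked 111 and 175. That scaling put the median of all genes at 0.12 for the day difference in fructose, -0.20 in glucose, 0.30 for the interaction and -0.11 for the average sugar difference. Relative to it, 18 rising genes were lower on average in fructose, and 19 falling genes were higher and 4 lower. Over all genes tested, 808 were then lower and 226 higher. By the study's threshold, 7 rising genes were lower and 7 falling genes higher in fructose, against 130 lower and 79 higher over all genes tested. With edgeR the counts were 8 and 8 (195 higher and 240 lower among 10324 genes), and with DESeq2 22 and 25. The interaction called 28 rising genes after scaling to equal sums, against 527 genes higher over all genes tested. For the interaction, edgeR and DESeq2 had 1 fructose Cd-10 library, so that their counts are not given. Why these tools differ in the average sugar difference was not tested.

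Leaving out single cultures gave 35 to 70 rising and 65 to 103 falling genes by the rule. The average sugar difference then called 8 to 24 rising genes lower and 13 to 31 falling genes higher in fructose. Over all genes tested it called 249 to 686 lower and 146 to 615 higher. The day difference in fructose called 44 to 47 rising and 79 to 86 falling genes, and that in glucose 0 to 4 genes. Over all genes tested, the fructose calls were 901 to 1332 higher and 888 to 1384 lower. Those in glucose were 560 to 1317 higher and 423 to 1035 lower. The interaction called 3 to 25 rising and 11 to 61 falling genes, against 36 to 398 higher and 56 to 677 lower over all genes tested. Without overlap between the sugars, 14 to 23 rising genes lay above and 30 to 44 falling genes below glucose at Cd-10. At Cd-6, 32 to 38 rising genes lay below and 65 to 82 falling genes above it. Leaving out a culture can only raise these overlap counts, so that their lower ends do not measure stability. With libraries scaled to equal sums, the 4 counts in this order were 15, 25, 38 and 54. With the values as deposited they were 10, 34, 37 and 58. Replicate numbers did not pair the cultures, since the correlation of same-numbered deviations ran from -0.203 to 0.18 and exceeded 0.1 in 2 of 18 pairs. With a replicate block the average sugar difference called 17 rising genes lower and 22 falling genes higher, against 444 lower and 297 higher over all genes tested. For the named genes, no alternative run reversed the direction of the fructose difference or of the average sugar difference. For the other genes this was not checked gene by gene.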
